A study of Mus musculus with 7 samples.

Results

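The genes described here are the mouse genes of ubiquitin-conjugating enzymes. They were taken as the protein-coding genes of the GENCODE M21 annotation (GRCm38, mm10) whose symbols start with Ube2, with an exception not reported here. This rule gave 36 of 21951 protein-coding genes. Their chromatin in skeletal muscle was examined with lists of ChIP-seq peaks for 2 proteins of the circadian clock, the activator BMAL1 and the repressor REV-ERBα, and for RNA polymerase II (RNAP2). ChIP-seq sequences the DNA that an antibody recovers together with a protein. Gastrocnemius muscles came from wild-type male C57BL/6J mice of 5 months, kept under light and dark cycles on standard chow. BMAL1 and RNAP2 were mapped at Zeitgeber time (ZT) 4 and REV-ERBα at ZT 8, with 2 biological replicates each, so that REV-ERBα differs from the others in antibody and in time of day at once. There was no group without BMAL1 or REV-ERBα and no other time of day among these lists, and the whole muscle holds other cell types beside the fibers.

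Ubiquitin is attached to proteins by a relay. An E1 enzyme activates it, an E2 enzyme (the Ube2 family) carries it as a thioester on a cysteine, and an E3 ligase passes it to the target protein, often as a chain that sends the target to the proteasome. With many E3 ligases the E2 largely sets the kind of chain that is built. A few E2 enzymes carry relatives of ubiquitin (SUMO, NEDD8, ISG15) instead. In skeletal muscle this relay is best known for the breakdown of contractile proteins.

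A peak was counted for a gene when its edge lay within 10 kb of any annotated transcription start site (TSS) of the gene. A region was called present in both replicates when the peaks of both lists overlapped there by at least 1 bp. The strength of a peak is given as −log10 p, the peak caller's p-value against input DNA at the summit, and a region is ranked by the lower of its replicates. No test was made between gene groups or between animals. Shares among the 36 genes are given as descriptions beside the same share among other protein-coding genes.

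Of the 3 factors, RNAP2 had the most regions present in both replicates, 10752 in the genome against 2742 for BMAL1 and 1263 for REV-ERBα, and it was also the factor with such a region near most Ube2 genes. An RNAP2 region shared by its replicates was near a TSS, at no more than 10 kb, for 22 of the 36 genes (61.1%), and the background among other protein-coding genes was 38.1% (8347 of 21914). Within 1 kb of a TSS the counts were 20 of 36 (55.6%) and 30.5% (6680 of 21914). Clock factor regions were few. Of the 22 genes with an RNAP2 region, 3 had a REV-ERBα region in both replicates within 10 kb (*Ube2c*, *Ube2d2a* and *Ube2d3*), where the background among other genes with an RNAP2 region was 7.70%. Another 3 counts were for BMAL1 (*Ube2c*, *Ube2k* and *Ube2l3*, background 6.49%). A shared site, where 3 or 4 of the lists of the clock factors held a peak, was found for 1 gene, *Ube2c* (background 2.60%). Within 1 kb of a TSS, a REV-ERBα region was found for 1 of the 22 genes, *Ube2d3* (background 4.47%). Counts of 1 to 3 of 22 genes are too small to place the family above or below these backgrounds.

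**Figure D1:**
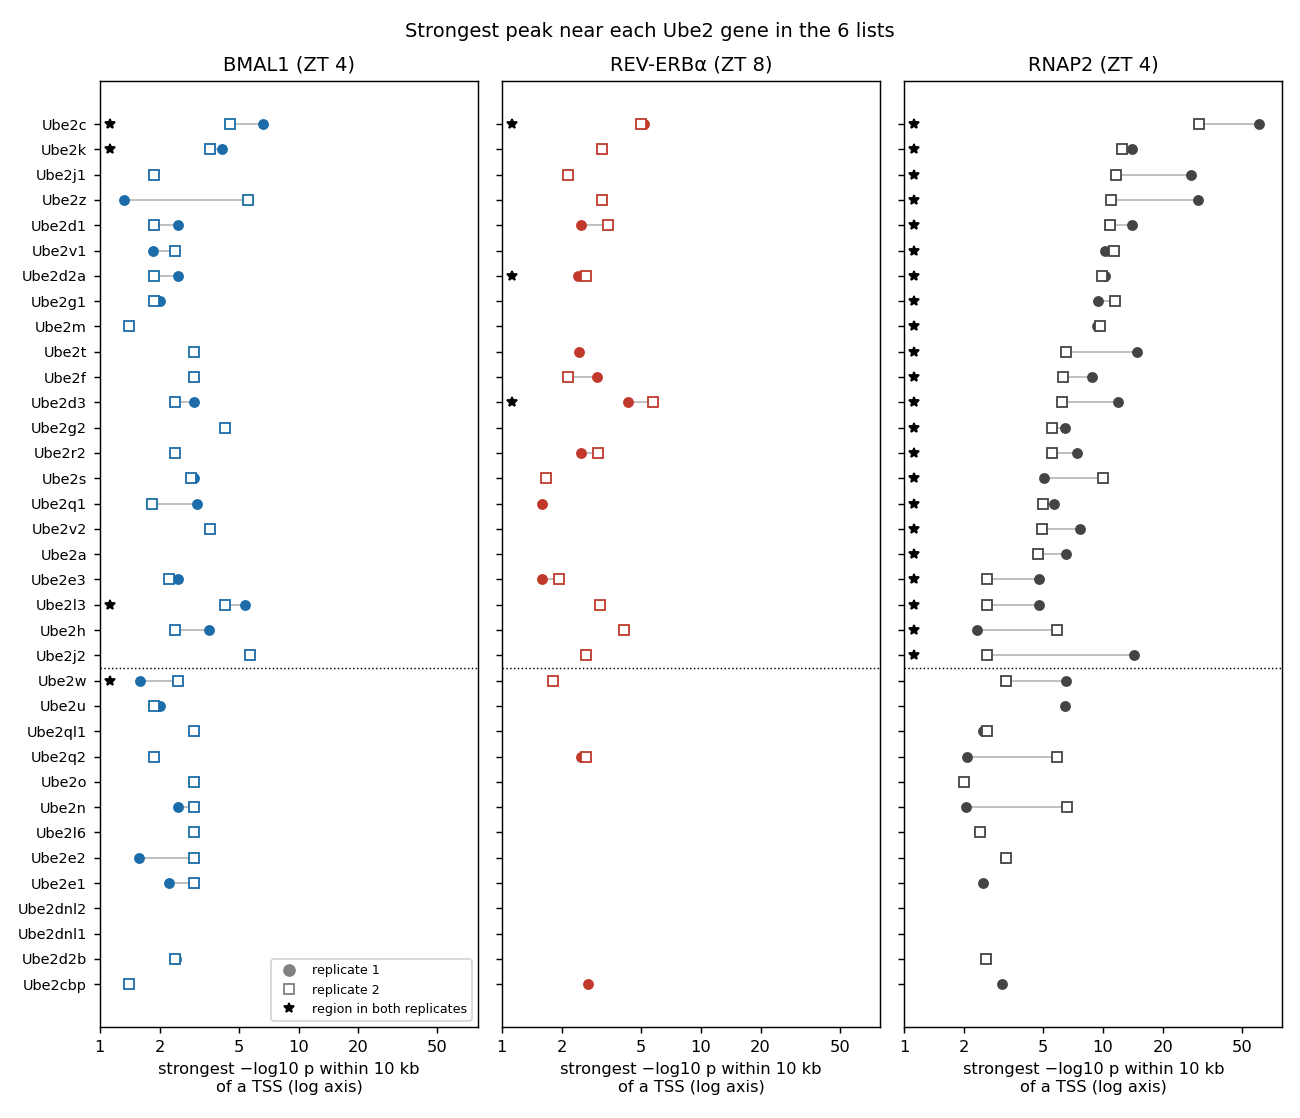
Strongest −log10 p (log axis) of each list within 10 kb of a TSS for each of 35 Ube2 genes; filled circles are replicate 1, open squares replicate 2, and a star marks a region present in both replicates. The 22 genes above the dotted line have an RNAP2 region in both replicates and are ordered by its strength; a gene with no symbol in a panel has no peak in that list, and peaks of the 2 replicates need not lie at the same place.

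Taken list by list, with no need for both replicates, a BMAL1 peak of replicate 1 lay within 10 kb of 13 of the 22 genes (59.1%, background 38.6%) and a BMAL1 peak of replicate 2 near 21 of them (95.5%, background 90.4%). For REV-ERBα the counts were 9 of 22 in replicate 1 (40.9%, background 39.8%) and 14 of 22 in replicate 2 (63.6%, background 42.5%). The lists differ in length, with 34737 peaks for BMAL1 in replicate 1 and 177669 in replicate 2. The other lists held 28881 and 29934 peaks (REV-ERBα) and 87870 and 168821 peaks (RNAP2). The 22 genes also offered more room for a peak than the others did. Their windows covered a median of 35544 bp, against 27798 bp for the other genes with an RNAP2 region, at the same median of 5 annotated TSSs. Counted per 100 kb of window, BMAL1 peaks numbered 2.77 near the 22 genes and 1.63 near the other genes in replicate 1, and 8.70 and 9.08 in replicate 2. The corresponding densities of REV-ERBα peaks were 1.58 and 1.60 in replicate 1, and 2.37 and 1.77 in replicate 2. The excess of BMAL1 peaks in replicate 1 was thus not present in replicate 2, and that of REV-ERBα peaks in replicate 2 was not present in replicate 1.

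**Figure D2:**
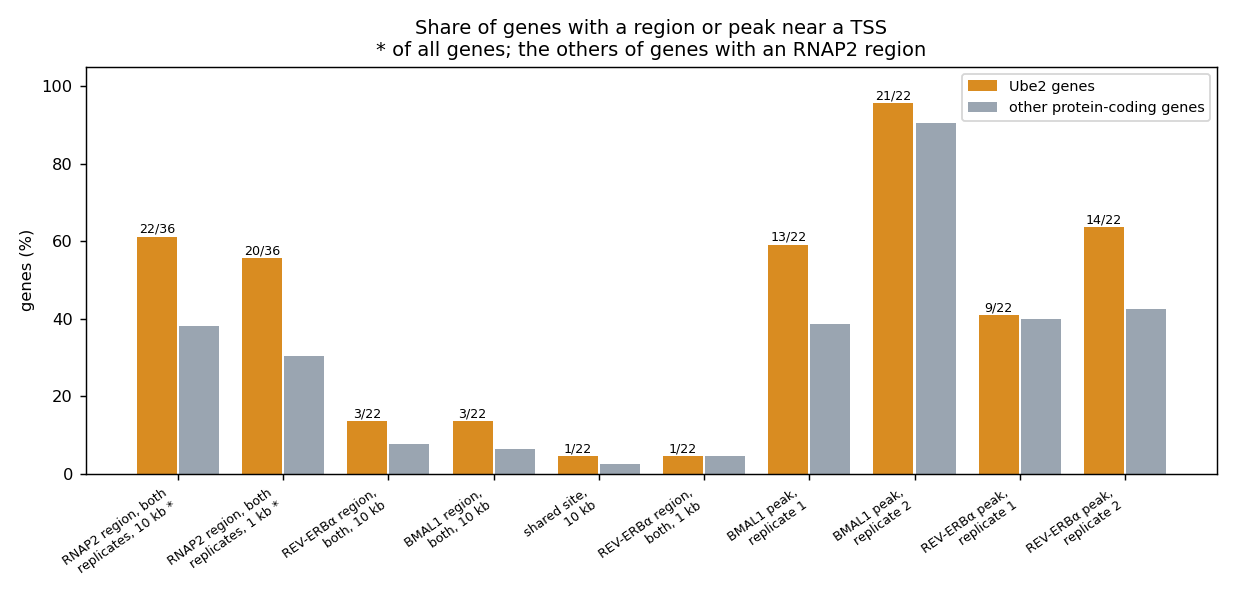
Percent of Ube2 genes (orange, with counts) and of other protein-coding genes (grey) that have a region in both replicates, a shared site, or a peak of a single list near a TSS. The first pair of bars is taken over all genes within 10 kb and the next over all genes within 1 kb, and the rest over genes with an RNAP2 region; the RNAP2 bars of the Ube2 genes stand at 61.1% and 55.6%, against 38.1% and 30.5%.

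Most clock factor peaks near the 36 genes were weak, as were most peaks of the whole lists. The 27 BMAL1 peaks of replicate 1 had a median −log10 p of 2.48, the same as the whole list, and the 109 peaks of replicate 2 had a median of 1.87, again that of their list. The 15 and 21 REV-ERBα peaks had medians of 2.5 and 2.64, with list medians of 2.5 and 2.59. A −log10 q of at least 1.3 (a q-value of about 0.05 or less) was reached by 1 of the 27 BMAL1 peaks of replicate 1, by 0 of the 109 of replicate 2, by 0 of the 15 REV-ERBα peaks of replicate 1 and by 1 of the 21 of replicate 2. The peaks that reached it lay near *Ube2c* (BMAL1) and *Ube2d3* (REV-ERBα). Few peaks of the whole lists reached it either. For BMAL1 these were 92 of 34737 in replicate 1 and 36 of 177669 in replicate 2. For REV-ERBα they were 324 of 28881 and 423 of 29934. Identical values recurred: a −log10 p of 2.98 was the strongest BMAL1 replicate 2 peak of 8 of the 33 genes that had a peak, and 19107 peaks of that list carried it.

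The E2 enzymes of chain initiation, which work with many RING-type E3 ligases, held the only Ube2 gene with both an RNAP2 and a REV-ERBα region at its own promoter. *Ube2d3* (ENSMUSG00000078578, chromosome 3, GRCm38) encodes one of the most general E2 enzymes. At its REV-ERBα region the replicates reached a −log10 p of 4.32 and 5.78. The summits, apart from each other, were at −9 and −19 bp from the nearest of the gene's 16 annotated TSSs, which was a different one for each, at fold enrichments of 2.74 and 3.43, and the −log10 q was 0.184 and 1.43, so that replicate 1 alone would not have passed a q-value of 0.05. The other genes with a REV-ERBα region had a median of 4.02 for the lower replicate (interquartile range 2.5 to 11.0), and *Ube2d3* was close to that median. RNAP2 at the same promoter had a −log10 p of 11.9 and 6.19. BMAL1 peaks of 3.0 and 2.40 were listed within 10 kb, without a region in both replicates.

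*Ube2d1* had RNAP2 at 14.0 and 10.8 at its promoter, among the 5 strongest of the family. Its REV-ERBα peaks of 2.5 and 3.41 and BMAL1 peaks of 2.48 and 1.87 did not overlap between replicates. *Ube2d2a* had RNAP2 at 10.2 and 9.91, a weak REV-ERBα region of 2.41 and 2.64 that ended 1968 bp upstream of the gene, and BMAL1 peaks of 2.48 and 1.87 at different places. The REV-ERBα region of *Ube2d2a* had a −log10 q of 0 in both replicates. *Ube2d2b*, a further copy, had no RNAP2 region, with RNAP2 at no more than 2.59 in replicate 2 and no peak in replicate 1, BMAL1 peaks of 2.41 and 2.40, and no REV-ERBα peak. *Ube2dnl1* and *Ube2dnl2*, neighbors on the X chromosome, had no peak in any of the 6 lists. Reads that map to several places had been removed before peak calling, and how much of these near-copies could be mapped was not tested.

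Among the *Ube2e* genes, close relatives of the *Ube2d* genes with an N-terminal extension, *Ube2e3* alone had an RNAP2 region in both replicates, at 4.79 and 2.60. Its BMAL1 peaks were 2.47 and 2.23 and its REV-ERBα peaks 1.59 and 1.95, none of them shared between replicates. *Ube2e1* had an RNAP2 peak of 2.5 in replicate 1, at 9861 bp from a TSS, and none in replicate 2, while BMAL1 was listed at 2.23 and 2.98 and REV-ERBα in neither list. *Ube2e2* had RNAP2 peaks of up to 3.21 and 3.26 that lay apart from each other, BMAL1 peaks of 1.58 and 2.98 and no REV-ERBα peak. *Ube2w*, which puts ubiquitin on the N-terminus of proteins, had RNAP2 at its promoter in replicate 1 (6.54, summit at −12 bp from a TSS), whereas the strongest RNAP2 peak of replicate 2 was 3.26 and 6575 bp away. A BMAL1 region with 1.59 and 1.97 lay in an intron of *Ube2w*, and with a REV-ERBα peak of 1.80 in replicate 2 it made a shared site. These values are below the medians of their lists, except BMAL1 in replicate 2. In all, 4 of the 8 chain initiation genes had an RNAP2 region (other protein-coding genes 38.1%).

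All 4 genes of E2 enzymes known for K48-linked chains, the chains that the proteasome recognizes, had an RNAP2 region at their own promoter. Among other protein-coding genes the share within 1 kb of a TSS was 30.5%, and 4 genes are too few to set against it. *Ube2k* stood at 14.1 and 12.4 and *Ube2g1* at 9.46 and 11.6, in the upper quartile of the other genes. *Ube2g2*, which serves the breakdown of misfolded proteins of the endoplasmic reticulum (ER), stood at 6.45 and 5.52, and *Ube2r2*, which works with cullin-RING ligases, at 7.38 and 5.51. None of these 4 genes had a REV-ERBα region in both replicates, which cannot be read against a background of 7.70% with so few genes. The RNAP2 region of *Ube2k* spans 573 bp and also covers a TSS of *Smim14*, so the polymerase of both genes is counted in it. *Ube2k* had REV-ERBα only in replicate 2 (3.18), and BMAL1 at up to 4.12 and 3.60. The BMAL1 region that both replicates shared was weaker, with 2.01 and 1.87 at chr5:65598920-65599653, across the 3′ end of the gene with both summits past it, and 7324 bp from an internal TSS. *Ube2g1* had BMAL1 peaks of 2.01 and 1.87, *Ube2g2* a BMAL1 peak of 4.25 in replicate 2 alone, and both lacked REV-ERBα peaks.

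The enzymes of K63-linked chains act as a heterodimer of *Ube2n* with a catalytically inactive partner, *Ube2v1* or *Ube2v2*. *Ube2v1* had RNAP2 at 10.2 and 11.4 and *Ube2v2* at 7.64 and 4.93, each at its promoter. The catalytic gene *Ube2n* had RNAP2 at its promoter in replicate 2 (6.60) but no peak there in replicate 1, whose only peak, of 2.04, was 9065 bp away. *Ube2v1* had BMAL1 peaks of 1.85 and 2.40, *Ube2v2* a BMAL1 peak of 3.60 in replicate 2, and *Ube2n* BMAL1 peaks of 2.48 and 2.98. A REV-ERBα peak was listed for none of the 3 genes in either replicate, and 3 genes are too few to read this as a trait of the group.

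The mitotic E2 enzymes *Ube2c* and *Ube2s* start and extend ubiquitin chains for the anaphase-promoting complex. *Ube2c* (ENSMUSG00000001403, chromosome 2) had the highest RNAP2 values in the family, 60.9 and 30.6, with REV-ERBα at up to 5.2 and 4.99 and BMAL1 at 6.60 and 4.53. These regions lay beside *Tnnc2*, the fast skeletal muscle troponin C gene. The RNAP2 region spans 8105 bp, chr2:164772159-164780263, covers a TSS of *Tnnc2*, has its summits 9776 and 9790 bp downstream of the *Ube2c* TSS and begins 2256 bp from it. Within 1 kb of a *Ube2c* TSS there was no peak in any of the 6 lists. Of the 2 REV-ERBα regions, one covers a TSS of *Tnnc2* (5.2 and 3.71) and the other is 3261 bp from *Tnnc2* and 3583 bp from *Ube2c* (3.47 and 4.99). The BMAL1 region, chr2:164773314-164776076, was the strongest near any Ube2 gene, with 6.60 in replicate 1 (−log10 q 1.59) and 4.53 in replicate 2 (−log10 q 0), and lay 3411 bp from *Ube2c*, somewhat nearer to it than to *Tnnc2*. When each region was given to its nearest gene, *Ube2c* kept no RNAP2 region and left the count of 22. In a whole muscle, weak occupancy in all nuclei and strong occupancy in a few cannot be told apart, and peak lists do not separate the genes that share a region. The sequence around both BMAL1 summits is shown as that of the strongest BMAL1 region near a Ube2 gene in the GRCm38 genome. Here and further on, 5 motifs were searched on both strands: the E-boxes CACGTG and CAGCTG, the nuclear receptor element AGGTCA, the ETS core CCGGAA and the TATA box TATAAA. Capitals mark the only match in this window, CCGGAA on the minus strand.
*Ube2c*, BMAL1 summits, chr2:164774209-164774390, plus strand: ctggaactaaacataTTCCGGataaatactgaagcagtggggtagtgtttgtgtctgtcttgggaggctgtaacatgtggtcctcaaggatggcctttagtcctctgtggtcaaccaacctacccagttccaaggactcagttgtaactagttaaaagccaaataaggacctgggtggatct
No E-box CACGTG or CAGCTG was in this window. Within 100 bp of the stronger summit of each of all 2742 BMAL1 regions, CACGTG was found in 2.55% and CAGCTG in 7.08%.

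*Ube2s*, in contrast, had RNAP2 at its own promoter, at 5.07 and 10.005 with both summits within 6 bp of a TSS. Its BMAL1 peaks of 3.0 and 2.88 and its REV-ERBα peak of 1.67 (replicate 2) formed no region. Its promoter, from RefSeq (GRCm38.p6) and read along the gene with 250 bases before and 50 after the start, is shown because it joins a TATA box to a high CpG content (observed over expected 1.22, the highest of the 39 Ube2 promoters in the table). Capitals mark AGGTCA at base 31 and TATAAA at base 207.
*Ube2s* promoter, chr7:4812291-4812590, minus strand: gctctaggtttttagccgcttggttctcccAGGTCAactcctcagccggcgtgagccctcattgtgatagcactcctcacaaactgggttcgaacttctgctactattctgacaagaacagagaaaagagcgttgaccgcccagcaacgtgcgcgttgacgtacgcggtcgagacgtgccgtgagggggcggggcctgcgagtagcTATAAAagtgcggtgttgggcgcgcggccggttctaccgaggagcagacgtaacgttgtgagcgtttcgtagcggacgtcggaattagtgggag
The TATA box was in 3 of 26 promoters of Ube2 genes with an RNAP2 region, and in 7.28% of the 8329 promoters of other genes with an RNAP2 region.

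The membrane-bound E2 enzymes of the ER, *Ube2j1* and *Ube2j2*, both had an RNAP2 region, of very different strength. The share among other protein-coding genes was 38.1%, and 2 genes are too few to set against it. *Ube2j1* stood at 27.8 and 11.6 with summits at 14 and −16 bp from a TSS, the strongest region at an unshared promoter of the family. *Ube2j2* stood at 14.3 in replicate 1 but at 2.00 in replicate 2, the lowest lower-replicate value of the 22 genes and a disagreement between its replicates. *Ube2j1* had single BMAL1 (1.87) and REV-ERBα (2.15) peaks, both in replicate 2. *Ube2j2* had a BMAL1 peak of 5.68 and a REV-ERBα peak of 2.64 in replicate 2 and none in replicate 1. The BMAL1 value was the highest of all 109 BMAL1 peaks of replicate 2 near the 36 genes. The *Ube2j1* promoter held none of the 5 motifs and so has no capitals.
*Ube2j1* promoter, chr4:33031130-33031429, plus strand: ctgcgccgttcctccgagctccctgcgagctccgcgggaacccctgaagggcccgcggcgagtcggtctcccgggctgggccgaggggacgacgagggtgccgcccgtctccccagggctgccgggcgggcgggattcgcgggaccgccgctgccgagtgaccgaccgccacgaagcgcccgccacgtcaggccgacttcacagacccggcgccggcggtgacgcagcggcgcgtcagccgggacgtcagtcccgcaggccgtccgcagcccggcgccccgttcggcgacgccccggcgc
With a GC content of 78.7% it was surpassed by 4 of the 39 Ube2 promoters in the table.

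Of the DNA damage enzymes, *Ube2a*, which acts in the tolerance of damaged DNA, had RNAP2 at 6.55 and 4.73 at its promoter, beside a TSS of *C330007P06Rik*, and no BMAL1 or REV-ERBα peak in any list. *Ube2t*, the E2 enzyme of the Fanconi anemia pathway, was counted for an RNAP2 region of 14.9 and 6.50 that lies 6459 bp from it. This region covers a TSS of *Ppp1r12b*, a regulatory subunit of myosin phosphatase. To which gene its polymerase belongs was not tested. No peak of any list was within 1 kb of a *Ube2t* TSS. The BMAL1 peak of 2.98 (replicate 2) and the REV-ERBα peak of 2.44 (replicate 1) of *Ube2t* stood alone.

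*Ube2l3*, which serves HECT and RBR ligases such as parkin, had an RNAP2 region low in the family and a BMAL1 region high among those of other genes. RNAP2 at its promoter was 3.97 and 2.48, among the 3 lowest of the 22 genes. The BMAL1 region, chr16:17171863-17172345, had 5.38 and 3.60, with summits in an intron 1274 and 1184 bp downstream of an internal TSS. It was above the upper quartile (2.40) of the lower replicate over the 542 other genes with a BMAL1 region. With TSSs of protein-coding transcripts of the basic annotation alone, neither this region nor that of *Ube2k* was within 10 kb of a TSS, and 1 of the 22 genes, *Ube2c*, kept a BMAL1 region. REV-ERBα was listed in replicate 2 alone, at 3.12. The sequence around both BMAL1 summits is shown with its TATAAA match in capitals, since it is the strongest BMAL1 region with no other protein-coding TSS within 10 kb.
*Ube2l3*, BMAL1 summits, chr16:17172021-17172231, plus strand: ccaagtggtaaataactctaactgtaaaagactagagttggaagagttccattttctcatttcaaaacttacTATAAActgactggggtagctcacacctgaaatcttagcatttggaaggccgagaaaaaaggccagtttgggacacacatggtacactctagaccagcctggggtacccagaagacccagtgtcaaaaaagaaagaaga
This window has a GC content of 42.2%, and all BMAL1 summit windows had a median of 39.8%. It held no E-box of either kind.

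The E2 enzymes of ubiquitin-like modifiers named here are too few to set against the 38.1% of other protein-coding genes with an RNAP2 region. *Ube2m* and *Ube2f*, which both carry NEDD8, had RNAP2 at 9.30 and 9.69 and at 8.86 and 6.27. *Ube2m* had a single BMAL1 peak (1.40, replicate 2) and no REV-ERBα peak, while *Ube2f* had BMAL1 at 2.98 in replicate 2 and REV-ERBα peaks of 3.02 and 2.15 at different places. *Ube2l6*, which carries ISG15, had RNAP2 only in replicate 2 (2.42) and no REV-ERBα peak.

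Of the 7 remaining E2 enzymes, 3 had an RNAP2 region (other protein-coding genes 38.1%): *Ube2z*, *Ube2q1* and *Ube2h*. *Ube2z*, charged by the E1 enzyme Uba6, was listed at 29.98 and 10.9, but this region covers a TSS of *Atp5g1*, a gene of ATP synthase, 9908 bp away. At its own promoter *Ube2z* had RNAP2 at 8.13 and 10.6. Its BMAL1 peaks were 1.33 and 5.58 and its REV-ERBα peak 3.18 in replicate 2, with no region in both. *Ube2h* had RNAP2 at 2.34 and 5.86, among the 3 lowest by the lower replicate, BMAL1 peaks of 3.54 and 2.40 and a REV-ERBα peak of 4.11 in replicate 2 alone. *Ube2q1* had RNAP2 at 5.69 and 5.02. Its paralog *Ube2q2* had RNAP2 at its promoter in replicate 2 (5.87) and only a peak of 2.08 at 5131 bp in replicate 1. *Ube2q2* had REV-ERBα peaks of 2.5 and 2.64 that did not overlap and a BMAL1 peak of 1.87 in replicate 2. *Ube2o* and *Ube2ql1* had RNAP2 peaks of at most 2.60, and *Ube2u* had RNAP2 in replicate 1 alone, at up to 6.45. *Ube2cbp* carries the family's symbol but is not an E2 enzyme, and had a single RNAP2 peak of 3.12.

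*Ube2q1* was the gene with an RNAP2 region whose promoter held the clock E-box CACGTG, at base 101 and again at base 129. The latter overlaps an AGGTCA match that starts at base 125. Capitals mark these and a CCGGAA match on the minus strand.
*Ube2q1* promoter, chr3:89773359-89773658, plus strand: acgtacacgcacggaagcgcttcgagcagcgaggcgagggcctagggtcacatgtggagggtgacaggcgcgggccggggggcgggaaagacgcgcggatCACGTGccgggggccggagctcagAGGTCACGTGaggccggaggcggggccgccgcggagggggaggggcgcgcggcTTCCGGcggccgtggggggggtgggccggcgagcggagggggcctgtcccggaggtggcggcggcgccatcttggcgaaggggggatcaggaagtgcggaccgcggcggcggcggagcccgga
The peaks of clock factors there were weak. A BMAL1 peak of 3.10 in replicate 1 lay within 1 kb of a TSS, and BMAL1 in replicate 2 (1.83) and REV-ERBα in replicate 1 (1.59) lay elsewhere within 10 kb. RefSeq promoters were matched by symbol for 29 of the 36 genes. CACGTG was in 1 of 26 promoters of Ube2 genes with an RNAP2 region (3.85%), in 10.5% of those of other genes with an RNAP2 region and in 7.15% of all 32851 promoters. CCGGAA was in 8 of the 26 (30.8%, others 27.6%, all promoters 14.9%), and AGGTCA in 8 of the 26 (30.8%, others 12.8%, all promoters 16.3%). Several genes have more than 1 promoter in the table, and overlapping promoters share their matches.

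**Figure D3:**
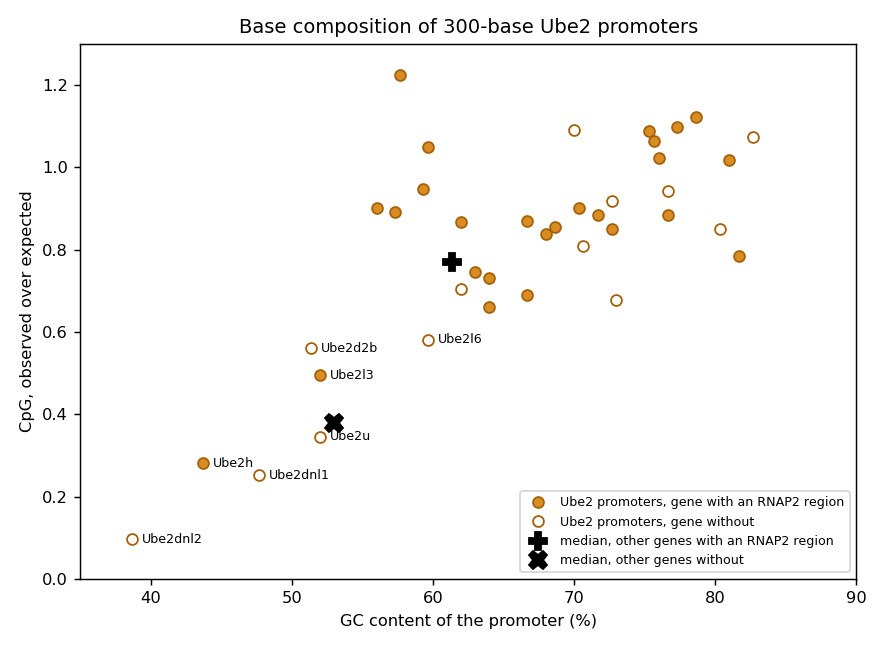
GC content (percent) against the observed over expected frequency of CpG for each 300-base promoter of the 29 Ube2 genes in the RefSeq table, filled where the gene has an RNAP2 region in both replicates and open where it has none. Black symbols are medians of other genes; the Ube2 promoters of genes with an RNAP2 region had medians of 67.3% and 0.884, against 61.3% and 0.769 for other genes with an RNAP2 region.

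By base composition, most Ube2 promoters were of the CpG-rich kind that is typical of widely used genes. Promoters of Ube2 genes with an RNAP2 region had a median GC content of 67.3% and a CpG ratio of 0.884, and those of other genes with an RNAP2 region 61.3% and 0.769. The genes without an RNAP2 region did not all differ: their 13 promoters had medians of 70% and 0.706, against 53% and 0.378 for other genes without one. The low end was held by *Ube2dnl2* (0.0956), *Ube2dnl1* (0.252), 1 of the 2 *Ube2h* promoters (0.281) and *Ube2u* (0.345).

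Ranked by the lower replicate, the strongest RNAP2 region of the 22 genes had a median −log10 p of 6.23, and the other 8347 genes had a median of 4.73 (interquartile range 3.05 to 7.83). Of the 22 genes, 17 were above the median of the others, 9 above their upper quartile and 4 below their lower quartile (*Ube2e3*, *Ube2l3*, *Ube2h* and *Ube2j2*). A −log10 q of at least 1.3 in both replicates was reached by 17 of the 22 genes (77.3%) and by 48.9% of the others. At promoters alone, where the regions of *Ube2c* and *Ube2t* drop out, the 20 genes had a median of 5.86 and the 6680 others 4.73, and 15 of the 20 were above that median. The replicates differed in level. The strongest peak of replicate 1 had a median of 9.38 among the 22 genes and 8.61 among the others, and that of replicate 2 had 6.38 and 5.09. In each replicate the median of the family was thus higher than that of the other genes and inside their interquartile range, which was 5.38 to 14.1 in replicate 1 and 3.26 to 8.33 in replicate 2.

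**Figure D4:**
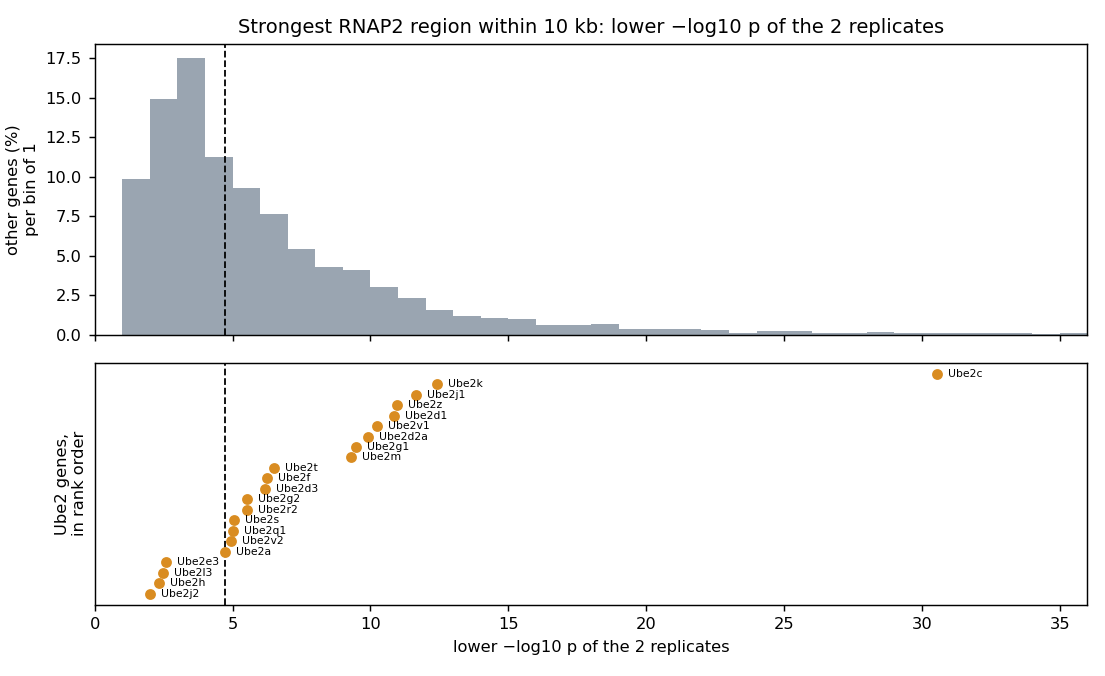
Lower −log10 p of the replicates for the strongest RNAP2 region within 10 kb of a TSS, as a histogram of the 8347 other genes (percent per bin of 1, upper panel; the axis stops at 36) and as points for the 22 Ube2 genes in rank order (lower panel). The dashed line is the median of the other genes, 4.73; 17 of the Ube2 genes lie above it.

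Of the 27 RNAP2 regions near Ube2 genes, 20 overlapped a TSS of the gene itself. Of the REV-ERBα regions near *Ube2c*, *Ube2d2a* and *Ube2d3*, that of *Ube2d3* did. Of the 4 BMAL1 regions, none was within 1 kb of a TSS, and the distances from the region's edge to the nearest TSS were 1010 bp (*Ube2l3*), 2647 bp (*Ube2w*), 3411 bp (*Ube2c*) and 7324 bp (*Ube2k*). BMAL1 regions near a start were uncommon at other genes too: 1.86% of the other genes with RNAP2 within 1 kb had one within 1 kb.

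**Figure D5:**
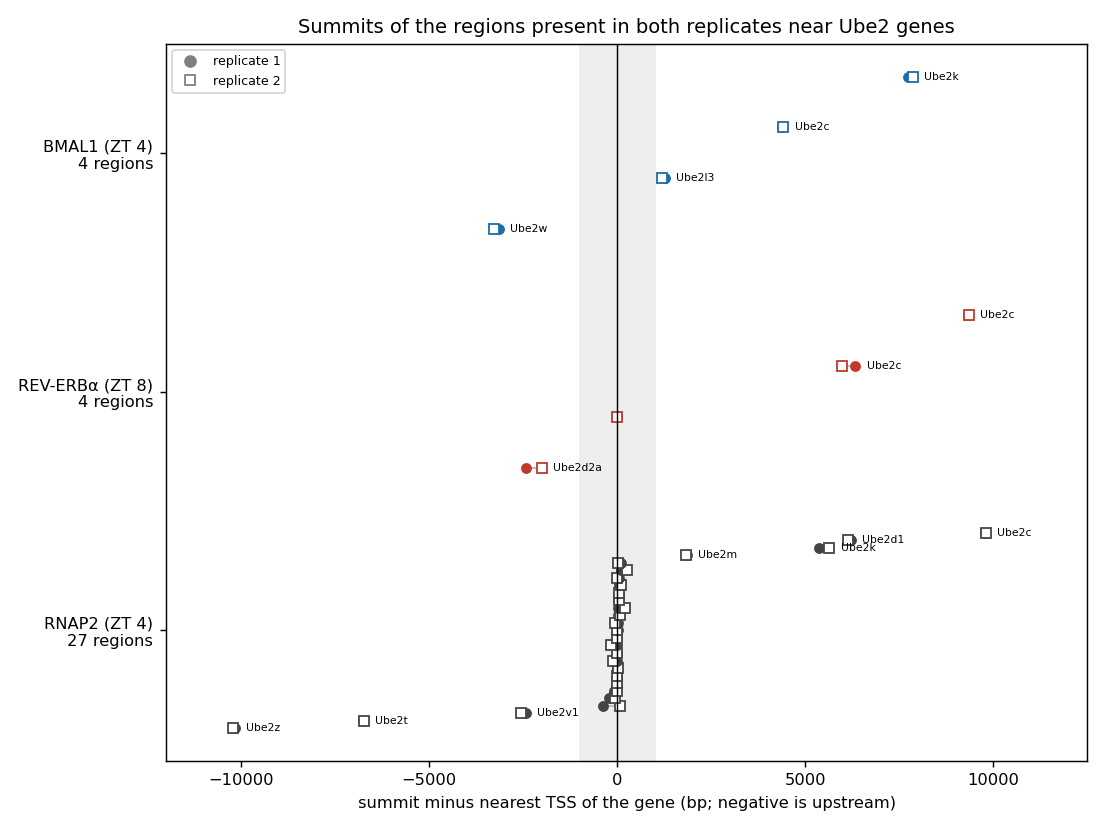
Distance in bp from the nearest TSS of the gene to the summits of replicate 1 (circles) and replicate 2 (squares) for the regions present in both replicates near the Ube2 genes named here, by factor; the grey band is 1 kb to each side. Points outside the band carry the gene's symbol; 20 of 27 RNAP2 regions sit on a TSS, and the 4 BMAL1 regions lie outside the band.

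Other genes of the relay were counted in the same way. An RNAP2 region in both replicates was found for 7 of 8 E1 enzyme genes, for 6 of 8 genes with an E2 fold but another symbol and for 4 of 6 genes of ubiquitin-like modifiers, beside the 38.1% of protein-coding genes given above. None of these genes had a REV-ERBα region, a BMAL1 region or a shared site within 10 kb, and they are too few to read this against backgrounds of 7.70%, 6.49% and 2.60%. As a check of the tissue, all 8 skeletal muscle marker genes had an RNAP2 region, and so did 0 of 3 markers each of heart, liver, adipocytes, endothelium and neurons. Of the 3 immune cell markers 1 did, *Cd68*, which lies among other genes with RNAP2 and has a REV-ERBα region nearest to *Eif4a1*. Of the muscle markers, 8 had a REV-ERBα region, 7 a BMAL1 region and 7 a shared site, beside the backgrounds of 7.70%, 6.49% and 2.60%. The only REV-ERBα region of the marker *Mylpf* was nearest to *Sept1*.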

How the data were processed

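The authors aligned reads of each ChIP-seq sample to mm10 with BWA 7.12 (version as in the submitters' processing notes), removed duplicates, kept reads with a mapping quality of at least 24, which takes out reads that map to several places, down-sampled the replicates of a factor to similar depth and called peaks on each replicate over input DNA with MACS2 2.1.1, keeping those with a p-value under 0.05. The 6 deposited lists give, from the authors' run, a −log10 p, a −log10 q and a fold enrichment (a ratio over the local input background) at each summit. The deposited score, 10 times the −log10 p, was not used. Reads per peak are not in the lists, so the depth behind a value is unknown and no counting interval is given. The input sample has no peak list.

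Peaks were merged and assigned to GENCODE M21 genes in Python 3.11.15 with numpy 2.4.6, and sequences were read with pysam 0.24.0 from the RefSeq genome and promoter table (GRCm38.p6). Code was tested on simulated peaks. The Ube2 genes are named, except those that are not reported here. For named genes, values in all lists are given for those with a BMAL1 or REV-ERBα region or shared site, the 5 strongest and 3 weakest by RNAP2, and paralogs. The members and gene lists were chosen with earlier results of these data known. Alternatives covered distance, peak thresholds, overlap, list length, gene assignment and leaving out each replicate.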

Additional observations from a re-analysis of the deposited data

How the results depend on the processing

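The count of Ube2 genes with an RNAP2 region was between 17 and 22 of 36 under every distance, threshold, overlap and assignment tried. The share of other genes ran from 18.6% (−log10 q of at least 1.3, 17 Ube2 genes) to 38.1% (22 Ube2 genes). With either RNAP2 replicate left out, the count was 31 of 36. The share of other genes was then 83.9% without replicate 1 and 73% without replicate 2. The family thus stood closer to the other genes than in the main count. The small counts for clock factors moved under the settings that follow. The shares of other genes, in brackets, fell at these settings too, from 7.70% for REV-ERBα, 6.49% for BMAL1 and 2.60% for shared sites. Of 3 genes with a REV-ERBα region, 1 was left within 1 kb (5.4%) and 0 at a −log10 q of at least 1.3 (4.36%). Of 3 with a BMAL1 region, 0 were left within 1 kb (1.86%) and 1 within 2.5 kb (2.98%). At a −log10 p of at least 3, 1 was left (0.797%), and at a −log10 q of at least 1.3, 0 (0.49%). With TSSs of the basic annotation, an alternative added after seeing the data, 1 was left (4.15%). The 1 gene with a shared site fell to 0 within 1 kb (1.47%) or 2.5 kb (1.71%), by the nearest gene (2.19%) and at the q threshold (0.711%). With a replicate of the factor left out, REV-ERBα counts were 9 and 14 (other genes 39.8% and 42.5%). BMAL1 counts were then 13 and 21 (other genes 38.6% and 90.4%), since each peak of the other list then counts. With RNAP2 replicate 1 or 2 left out, these counts were over 31 genes instead of 22. Of the 31, 4 had a REV-ERBα region (other genes 4.22% and 4.7%) and 4 a BMAL1 region (4.82% and 5.17%). A shared site was then found for 2 of the 31 (1.44% and 1.52%). With a clock factor replicate left out it was found for 1 of the 22 (1.23% to 1.71%). The median RNAP2 strength was 6.38 or 9.38 in a single replicate, and 4.07 as fold enrichment, another scale. The median REV-ERBα strength, over the 3 genes with a region, was 3.71, and 2.60 as fold enrichment. It became 2.5 (9 genes) or 3.08 (14 genes) in a single replicate and 4.32 within 1 kb (1 gene). With genes without a region set to 0 it was 0 (22 genes). The background of REV-ERBα was 3.67% over all protein-coding genes and 9.18% over genes with RNAP2 at a −log10 p of at least 3, and that of BMAL1 4.22% over all genes. No paired analysis was possible because no result comes from a test. Without reads per peak, the precision of a single value cannot be given, and 2 replicates per factor give no reliable estimate of the spread.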

Other observations

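Reading each relay from E1 enzyme to modifier, with genes chosen after their values were seen, RNAP2 was not listed evenly. For NEDD8, the E1 genes *Nae1* (7.90 and 7.83) and *Uba3* (5.85 and 5.91) and the E2 genes *Ube2m* and *Ube2f* had a region, and *Nedd8* (5.65 and 3.05) had none. For ISG15, *Uba7* (4.79 and 1.99) and *Isg15* (4.79 and 3.54) had a region and *Ube2l6* had none. All values are from 1 time of day, and no difference between these genes was tested.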
